A study of Mus musculus with 19 samples.

Results

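Among 22419 protein-coding genes of the deposited tables, 44 were near silent in preleptotene germ cells without STRA8 and present in preleptotene cells with high STRA8. They were selected on measured values in TPM, a gene's share of all protein-coding transcripts of a library corrected for transcript length. Each had a mean of at most 1 TPM over the 3 Stra8-deficient libraries. Each also had at least 1.5 TPM in both high-STRA8 libraries and a high-STRA8 mean of at least 4 times the Stra8-deficient mean. A further 2 genes met these limits and are not described here. The low-STRA8 libraries and the chromatin immunoprecipitation took no part in the choice. The difference between the Stra8-deficient and the high-STRA8 cells is thus a description and carries no test. Comparisons with the low-STRA8 libraries also use libraries that chose the genes, so their p-values for these genes are descriptions too.

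STRA8 is a germ cell protein that is made in response to retinoic acid and is needed for meiosis to start. Preleptotene is the last stage before meiotic prophase, when germ cells copy their DNA. A gene with TPM values under 1 has, on average, far less than 1 transcript in every cell, so that a rise to several TPM can reflect a few transcripts in many cells or many transcripts in a few cells. In bulk libraries, fewer cells of a type and less RNA per cell cannot be told apart.

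RNA was taken from preleptotene cells of mice on a C57BL/6 background whose spermatogenesis had been synchronized. WIN18,446, an inhibitor of retinoic acid synthesis, was given from postnatal day 2 to 8, retinoic acid followed on day 9, and testes were taken about 6.75 days later. All these mice carried Ddx4-Cre, which is active in germ cells, and a Rosa26 tdTomato reporter that allowed germ cells to be sorted. The 3 Stra8-deficient libraries came from Stra8 knock-out mice, and the 2 low-STRA8 and 2 high-STRA8 libraries from Stra8 heterozygous mice. The study told low from high by staining a testis biopsy for STRA8, and placed the low samples just before meiotic initiation and the high samples after it. For chromatin immunoprecipitation with a FLAG antibody, 3 samples came from whole, unsorted testes of Stra8 FLAG/FLAG mice, in which STRA8 carries the tag, and 3 from wild-type mice, both C57BL/6 with a small 129 contribution. These mice had been given WIN18,446 and retinoic acid on the same schedule, and their testes were collected at the same time after it. The study describes each FLAG/FLAG sample as chromatin from 1 mouse.

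The 7 RNA libraries held 25049625 to 30015072 estimated counts. Stra8 itself stood at 5.16 to 22.8 TPM in the Stra8-deficient, 236 and 315 TPM in the low-STRA8 and 1099 and 1248 TPM in the high-STRA8 libraries, so that the order of the groups followed the labels. The 6 germ cell markers examined summed to 2930 to 6770 TPM in every library. Sertoli cell markers were also present, with all 10 tested, and summed to 667 to 934 TPM in 6 libraries but to 208 TPM in low-STRA8 replicate 2. The sum for low-STRA8 replicate 1 (884 TPM) held opposite differences. Clu was at 148 TPM there, against 292 to 474 TPM in the Stra8-deficient and high-STRA8 libraries. Aard (405 TPM, against 90.3 to 277 TPM elsewhere), Inha, Cldn11, Rhox5, Wt1, Gata4 and Inhbb were highest there, and Sox9 and Amh were not. The other lists were low, at 3.48 to 18.9 TPM for Leydig cells, 50.9 to 90.5 TPM for peritubular and endothelial cells and 1.67 to 46.5 TPM for macrophages and blood cells. Undifferentiated spermatogonia markers summed to 51.8 to 64.7 TPM in the Stra8-deficient and 16.1 to 23.6 TPM in the other libraries. Markers of pachytene and later germ cells summed to 2.44 to 5.99 TPM in every library, with 3 of 16 at 0 throughout. None of the 44 genes is on a marker list.

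The genes reached modest levels. The median of their means was 0.407 TPM without STRA8, 0.713 TPM at low STRA8 and 3.33 TPM at high STRA8, against 26.5, 22.3 and 25.1 TPM over all 12523 genes tested. In the high-STRA8 cells 11 genes had a mean of at least 5 TPM, 22 lay between 2 and 5 TPM, and 11 lay under 2 TPM. The lowest mean was 1.62 TPM (Rhox6) and the highest 51.3 TPM (Gm21704). The plot of TPM by library shows that the step from the low-STRA8 to the high-STRA8 columns was, in mean TPM, larger than the step before it for all genes but Tmsb15a.

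**Figure D1:**
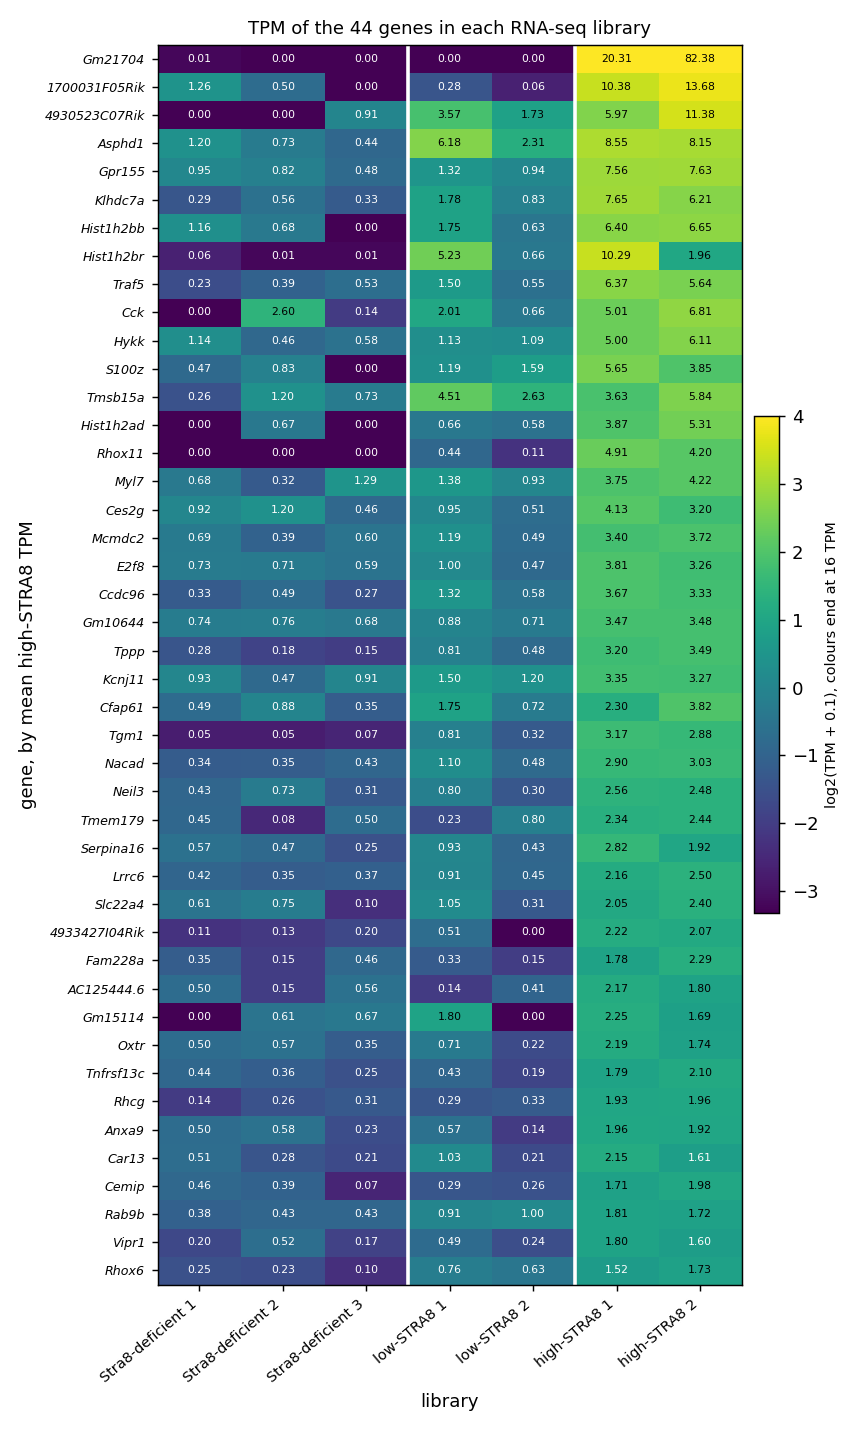
TPM of the 44 genes (rows, by high-STRA8 mean) in each of the 7 RNA libraries (columns, by group), printed in each cell and coloured on a log2(TPM + 0.1) scale. The high-STRA8 values of 41 genes lie above both low-STRA8 values, and the median high-STRA8 mean is 3.33 TPM.

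The 3 limits cut through a continuous range. Just inside the Stra8-deficient limit were Cck (0.913 TPM), Ces2g (0.86 TPM) and Asphd1 (0.793 TPM), and just outside were Gng8 (1.07 TPM), H2-Ab1 (1.2 TPM) and E030030I06Rik (1.31 TPM). By the lower of the 2 high-STRA8 values, Rhox6 (1.52 TPM), Vipr1 (1.6 TPM) and Car13 (1.61 TPM) were just inside, and Mageb3 (1.42 TPM), Zfp784 (1.37 TPM) and AI182371 (1.36 TPM) just outside. By the ratio of the means, Oxtr (4.15), Ces2g (4.26) and Rab9b (4.27) were just inside, and Rhox3h (3.88), Heyl (3.87) and Hey2 (3.86) just outside. Leaving out 1 of the 5 libraries used by the limits gave 45 to 64 genes, of which 39 to 44 were among the 44.

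Several genes have roles in DNA replication, chromatin or recombination. Mcmdc2 encodes an MCM-domain protein needed to repair meiotic double-strand breaks. It stood at 0.69, 0.39 and 0.60 TPM in the Stra8-deficient, 1.19 and 0.49 TPM in the low-STRA8 and 3.40 and 3.72 TPM in the high-STRA8 libraries. Both high-STRA8 libraries were above all others, while 1 low-STRA8 library lay above and 1 within the Stra8-deficient range. E2f8, an E2F family repressor active in S phase, had means of 0.679, 0.736 and 3.54 TPM in the same order. Neil3, a DNA glycosylase of replicating cells, had means of 0.489, 0.55 and 2.52 TPM.

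The 3 histone genes belong to the cluster on chromosome 13 whose products package new DNA. Hist1h2bb stood at 1.16, 0.68 and 0 TPM in the Stra8-deficient, 1.75 and 0.63 TPM in the low-STRA8 and 6.4 and 6.65 TPM in the high-STRA8 libraries. Hist1h2br stood at 0.06, 0.01 and 0.01 TPM, then 5.23 and 0.66 TPM, then 10.3 and 1.96 TPM, so that its low-STRA8 and high-STRA8 ranges overlapped. Hist1h2ad had means of 0.222, 0.618 and 4.59 TPM. Messages of this histone class mostly lack a poly(A) tail, and the libraries were poly(A)-selected. Nearly identical copies also share their reads. Of the 31-base words of the leading transcript, 100% for Hist1h2br, 68.3% for Hist1h2ad and 47.7% for Hist1h2bb occurred in other genes. The 14 H2B genes that share at least 20% of the words of Hist1h2br summed, with it, to 9.72 to 25.5 TPM in the Stra8-deficient, 11.2 and 34.1 TPM in the low-STRA8 and 42.1 and 52.0 TPM in the high-STRA8 libraries, a range without overlap between low and high. The H2A genes related to Hist1h2ad summed to 92.5 to 102 TPM, 134 and 159 TPM, and 108 and 112 TPM, highest in the low-STRA8 cells.

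Rhox11 was the only gene listed at 0 TPM in all 3 Stra8-deficient libraries. It encodes a homeodomain protein of the reproductive homeobox cluster on the X chromosome. It rose from 0.44 and 0.11 TPM in the low-STRA8 to 4.91 and 4.20 TPM in the high-STRA8 libraries (log2 change 3.82 ± 0.79 SE, adjusted p = 0.0112, edgeR quasi-likelihood test over all genes). The high-STRA8 libraries held 41 and 32 estimated counts of it and the low-STRA8 libraries 4 and 1. Against a floor of 3 counts over the Stra8-deficient group, its high-STRA8 level was at least 36.9-fold higher. Rhox6 of the same cluster stood at 0.25, 0.23 and 0.10 TPM, then 0.76 and 0.63 TPM, then 1.52 and 1.73 TPM, a stepwise order in which no groups overlapped. The change of Rhox6 from low to high did not pass the test (log2 difference 1.04 ± 0.60, adjusted p = 0.2), and 23.3% of its words also occurred in Rhox9. Of 22 Rhox genes tested, 2 rose and 5 fell from low-STRA8 to high-STRA8, with a median log2 difference of -0.60, and 2 rose and none fell from Stra8-deficient to low-STRA8. Over all genes tested, 21.4% rose and 18.3% fell in the first comparison, and 10.2% rose and 13.9% fell in the second.

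Ccdc96, Cfap61, Lrrc6 and Tppp are tied to microtubules and motile cilia, a grouping made among the 44 genes after their values were seen, like the other groupings by role. Ccdc96, which encodes a protein of the ciliary axoneme, stood at 0.33, 0.49 and 0.27 TPM in the Stra8-deficient, 1.32 and 0.58 TPM in the low-STRA8 and 3.67 and 3.33 TPM in the high-STRA8 libraries. Tppp, whose product binds and bundles microtubules, stood at 0.28, 0.18 and 0.15 TPM, then 0.81 and 0.48 TPM, then 3.20 and 3.49 TPM. For both genes the 3 groups did not overlap. Cfap61, a cilium protein gene, had means of 0.574, 1.24 and 3.06 TPM, and Lrrc6, which is needed to assemble dynein arms, had means of 0.377, 0.682 and 2.33 TPM. All 4 rose from low to high, by 1.51 (Cfap61), 1.67 (Lrrc6), 1.79 (Ccdc96) and 2.29 (Tppp) on the log2 scale, in the edgeR fit in which 21.4% of all genes tested rose. The call of Lrrc6 was lost in DESeq2, that of Cfap61 in limma, and those of Ccdc96, Cfap61 and Lrrc6 without either high-STRA8 library.

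Traf5, an adaptor of tumour necrosis factor receptors, stood at 0.23, 0.39 and 0.53 TPM in the Stra8-deficient, 1.5 and 0.55 TPM in the low-STRA8 and 6.37 and 5.64 TPM in the high-STRA8 libraries. The high-STRA8 libraries were far above the rest, and it rose from low to high by 2.43 ± 0.50 (SE) on the log2 scale (adjusted p = 0.00685, edgeR). Among the 6 members of the TRAF family tested, 2 rose from low to high and none fell, and 1 fell from Stra8-deficient to low. The shares over all genes tested were 21.4% and 18.3% from low to high, and 13.9% fell from Stra8-deficient to low. Gpr155, a lysosomal membrane protein that senses cholesterol, stood at 0.95, 0.82 and 0.48 TPM, then 1.32 and 0.94 TPM, then 7.56 and 7.63 TPM. Cck, the gut and brain peptide cholecystokinin, stood at 0, 2.60 and 0.14 TPM, then 2.01 and 0.66 TPM, then 5.01 and 6.81 TPM. One Stra8-deficient library lay above both low-STRA8 libraries, and the changes of Cck from Stra8-deficient to low and from low to high did not pass the test. The receptor genes Oxtr (oxytocin; means of 0.473, 0.466 and 1.97 TPM), Vipr1 (vasoactive intestinal peptide; 0.299, 0.365 and 1.7 TPM) and Tnfrsf13c (the B cell survival factor BAFF; 0.35, 0.313 and 1.95 TPM) had low-STRA8 means close to the Stra8-deficient ones, and all 3 rose from low to high.

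Kcnj11 encodes the pore of the ATP-sensitive potassium channel. It stood at 0.93, 0.47 and 0.91 TPM in the Stra8-deficient, 1.5 and 1.2 TPM in the low-STRA8 and 3.35 and 3.27 TPM in the high-STRA8 libraries, without overlap between groups. It rose from low to high by 1.19 ± 0.36 (SE) on the log2 scale (adjusted p = 0.0299, edgeR). Of the 4 subunits of this channel type only Kcnj11 and Abcc8, which encodes a regulatory subunit, passed the filter on low values. Abcc8 went the other way, from 0.86 to 1.25 TPM in the Stra8-deficient to 0.47 and 0.34 TPM in the low-STRA8 and 0.48 and 0.35 TPM in the high-STRA8 libraries. It fell from Stra8-deficient to low by 1.23 ± 0.33 on the log2 scale (adjusted p = 0.0303, edgeR) and did not pass the test from low to high. The summed TPM of all 4 was 1.73 to 2.38 in the Stra8-deficient and low-STRA8 libraries and 3.82 and 4.06 in the high-STRA8 libraries. The transporter genes Slc22a4 (carnitine and ergothioneine; means of 0.485, 0.68 and 2.23 TPM) and Rhcg (ammonia; 0.236, 0.313 and 1.94 TPM) had lower high-STRA8 means. Rhcg rose from low to high and Slc22a4 did not pass the test.

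Genes of enzymes included Hykk, Asphd1, Tgm1, Ces2g, Car13 and Cemip. Hykk, the kinase of hydroxylysine, stood at 1.14, 0.46 and 0.58 TPM in the Stra8-deficient, 1.13 and 1.09 TPM in the low-STRA8 and 5.0 and 6.11 TPM in the high-STRA8 libraries. Asphd1, named for an aspartate hydroxylase domain, stood at 1.2, 0.73 and 0.44 TPM, then 6.18 and 2.31 TPM, then 8.55 and 8.15 TPM. Both low-STRA8 values of Hykk lay within its Stra8-deficient range, and both of Asphd1 lay above its Stra8-deficient range. Tgm1, a transglutaminase known from the skin barrier, stood at 0.05, 0.05 and 0.07 TPM, then 0.81 and 0.32 TPM, then 3.17 and 2.88 TPM, with no overlap. Ces2g, a carboxylesterase gene, had means of 0.86, 0.729 and 3.67 TPM. Cemip, involved in the breakdown of hyaluronan, had means of 0.305, 0.273 and 1.84 TPM, and Car13, a carbonic anhydrase gene, 0.332, 0.617 and 1.88 TPM. Hykk, Tgm1, Ces2g and Cemip rose from low to high, and Asphd1 and Car13 did not pass the test.

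Genes with other named products were Klhdc7a, S100z, Tmsb15a, Myl7, Nacad, Serpina16, Tmem179, Anxa9, Rab9b and Fam228a. Klhdc7a, a kelch-domain gene, stood at 0.29, 0.56 and 0.33 TPM in the Stra8-deficient, 1.78 and 0.83 TPM in the low-STRA8 and 7.65 and 6.21 TPM in the high-STRA8 libraries. S100z, a calcium-binding protein gene, stood at 0.47, 0.83 and 0 TPM, then 1.19 and 1.59 TPM, then 5.65 and 3.85 TPM. These are 3 to 12 estimated counts a library in the low-STRA8 and high-STRA8 cells, and only the change of Klhdc7a passed the test. Tmsb15a, an actin-binding thymosin on the X chromosome, stood at 0.26, 1.2 and 0.73 TPM, then 4.51 and 2.63 TPM, then 3.63 and 5.84 TPM, so that its low-STRA8 and high-STRA8 values overlapped. Fam228a stood at 0.35, 0.15 and 0.46 TPM, then 0.33 and 0.15 TPM, then 1.78 and 2.29 TPM, a rise seen only in the high-STRA8 libraries. Rab9b, a small GTPase gene, stood at 0.38, 0.43 and 0.43 TPM, then 0.91 and 1.0 TPM, then 1.81 and 1.72 TPM, with no overlap between groups. Nacad had means of 0.377, 0.79 and 2.96 TPM, Serpina16 of 0.43, 0.683 and 2.37 TPM, and Anxa9, an annexin gene, of 0.436, 0.355 and 1.94 TPM, and each rose from low to high. The call of Serpina16 was lost in DESeq2 and without Stra8-deficient replicate 1 or 2.

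Myl7, the atrial myosin light chain, had means of 0.764, 1.16 and 3.98 TPM and no more than 22 estimated counts in any library. Tmem179 had means of 0.344, 0.518 and 2.39 TPM. Its estimated counts did not separate the groups, with 2.7, 3.0 and 10.2 in the Stra8-deficient, 8.0 and 3.7 in the low-STRA8 and 10.5 and 7.6 in the high-STRA8 libraries. A transcript of 521 bases held 99.4% of its TPM in the high-STRA8 cells. Neither gene passed the test from low to high.

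The remaining 7 genes have clone or gene-model names, and 3 of them led the list by level. Gm21704 on the Y chromosome stood at 0.01, 0 and 0 TPM in the Stra8-deficient, 0 and 0 TPM in the low-STRA8 and 20.3 and 82.4 TPM in the high-STRA8 libraries. All of its 31-base words (100%) occurred in other genes, with 9 genes sharing at least 20% of them, Rbmy among these. The 10 genes together summed to 2100 to 2310 TPM in the Stra8-deficient, 1690 and 1740 TPM in the low-STRA8 and 1220 and 1360 TPM in the high-STRA8 libraries. The family was thus lowest where Gm21704 was highest, and the value of 1 copy depends on how the estimation divides reads between copies. Gm15114 on the X chromosome was similar. It stood at 0, 0.61 and 0.67 TPM, then 1.80 and 0 TPM, then 2.25 and 1.69 TPM, while it and 11 relatives, Ott included, summed to 1190 to 1660 TPM in every library, and 96.8% of its words were shared.

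The X-linked 1700031F05Rik shared none of its words and had the clearest step of the genes with a clone name. It stood at 1.26, 0.50 and 0 TPM in the Stra8-deficient, 0.28 and 0.06 TPM in the low-STRA8 and 10.4 and 13.7 TPM in the high-STRA8 libraries. It rose from low to high by 5.98 ± 1.11 (SE) on the log2 scale (adjusted p = 0.00456, edgeR), with 172 and 214 estimated counts in the high-STRA8 libraries. 4930523C07Rik stood at 0, 0 and 0.91 TPM, then 3.57 and 1.73 TPM, then 5.97 and 11.4 TPM. Its only transcript has 300 bases and drew 5 estimated counts in each high-STRA8 library, so that equal counts gave unequal TPM.

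Gm10644 stood at 0.74, 0.76 and 0.68 TPM in the Stra8-deficient, 0.88 and 0.71 TPM in the low-STRA8 and 3.47 and 3.48 TPM in the high-STRA8 libraries. It shared 31.8% of its words with Adgrl1, which had 26.8 to 43.2 TPM in the Stra8-deficient, 12.8 and 9.32 TPM in the low-STRA8 and 29.0 and 36.5 TPM in the high-STRA8 libraries. Adgrl1 thus also rose from low to high (log2 change 1.39 ± 0.23, adjusted p = 0.00298, edgeR), and the part of shared reads in the rise of Gm10644 was not tested. AC125444.6, named Gm47955 in GENCODE M21, stood at 0.50, 0.15 and 0.56 TPM, then 0.14 and 0.41 TPM, then 2.17 and 1.80 TPM, with 13.3 and 9.6 estimated counts in the high-STRA8 libraries. Its change from low to high did not pass the test (log2 difference 2.45 ± 0.92, adjusted p = 0.064, edgeR). 4933427I04Rik had means of 0.148, 0.253 and 2.15 TPM and rose from low to high.

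The comparison of high-STRA8 with low-STRA8 cells asked which of these genes change once STRA8 is high. Both high-STRA8 libraries lay above both low-STRA8 libraries for 41 of the 44 genes, the exceptions being Hist1h2br, Tmsb15a and Gm15114. This held for 44.2% of all genes tested. In the edgeR fit 28 genes rose and none fell, where over all genes tested 21.4% rose and 18.3% fell. The median log2 difference was 2.02, and it was also 2.02 with genes at 0 set at their bound. The median over all genes was 0.01. The high-STRA8 libraries also chose the genes, which favours this direction. The counts, and the p-values of single genes, thus describe these genes and support no more.

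Steps of Gpr155 (log2 change 2.65 ± 0.32, adjusted p = 0.00109), Gm10644 (2.01 ± 0.29, adjusted p = 0.00192), Tppp (2.29 ± 0.36, adjusted p = 0.00256) and Klhdc7a (2.32 ± 0.38, adjusted p = 0.00282) had the lowest adjusted p in edgeR's fit. Of the 16 genes that did not pass, 10 had under 50 estimated counts in both high-STRA8 libraries together, and none of the 28 that passed did. Others that did not pass, such as Asphd1 (182.4), Rab9b (144.3) and Slc22a4 (126.4), had more estimated counts there than Rhox11 (73.0), which passed. The count rested on both high-STRA8 libraries, since without high-STRA8 replicate 1 it was 14 and without replicate 2 it was 13. DESeq2 called 25 genes, without Rhox11, Serpina16 and Lrrc6, and limma on log2(TPM + 1) called 37, without Cfap61. In that limma fit 63.6% of the calls over all genes were rises in place of 53.9%. The median of all genes moved from 0.01 to 0.11. Gm21704 lost its call when genes of low TPM were kept in the fit. The calls of Rhox11, Mcmdc2, Kcnj11, Neil3, Serpina16, 4933427I04Rik, Oxtr, Anxa9, Cemip and Vipr1 were also lost with either high-STRA8 library left out.

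The comparison of low-STRA8 with Stra8-deficient cells asked whether the genes were already above the near-silent level before STRA8 was high. The low-STRA8 mean was above the Stra8-deficient mean for 35 of 44 genes, but at or under 1 TPM for 30. Both low-STRA8 libraries lay above all 3 Stra8-deficient libraries for 16 genes, against 12.1% of all genes tested. In edgeR's fit 7 genes rose and none fell, where over all genes 10.2% rose and 13.9% fell. The median log2 difference was 0.87 (0.89 with genes at 0 set at their bound), against 0.03 over all genes. The Stra8-deficient libraries were chosen low by the rule, which favours a rise here, so these counts and the p-values of single genes are descriptions.

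The 7 genes that rose were Tgm1 (log2 change 3.48 ± 0.53, adjusted p = 0.0042), Klhdc7a (1.90 ± 0.35, adjusted p = 0.00805), Asphd1 (1.89 ± 0.57, adjusted p = 0.0448), Tppp (1.83 ± 0.35, adjusted p = 0.0093), Ccdc96 (1.57 ± 0.40, adjusted p = 0.0255), Rab9b (1.4 ± 0.32, adjusted p = 0.0168) and Nacad (1.25 ± 0.35, adjusted p = 0.0338), all by edgeR. Of these, 5 rose again from low to high, while Asphd1 (log2 difference 1.23 ± 0.58, adjusted p = 0.125) and Rab9b (0.78 ± 0.33, adjusted p = 0.0958) did not pass the test in edgeR. The call of Asphd1 was lost without any single Stra8-deficient library, without low-STRA8 replicate 1 and without either high-STRA8 library. That of Ccdc96 was lost without Stra8-deficient replicate 1 or 3, low-STRA8 replicate 1 or either high-STRA8 library. That of Nacad was lost without Stra8-deficient replicate 1 or 2, low-STRA8 replicate 1 or either high-STRA8 library. Rab9b lost its call without either high-STRA8 library. Without low-STRA8 replicate 1 the count of 7 fell to 4, and without either high-STRA8 library, which changes only the estimate of the spread, it was 3. On log2(TPM + 1) values in limma, 15.5% of the calls over all genes were rises in place of 42.2%, the median of all genes moved from 0.03 to -0.15, and 3 of the 44 genes rose, Asphd1, 4930523C07Rik and Tmsb15a.

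Low-STRA8 values lay closer to the Stra8-deficient than to the high-STRA8 level for nearly all genes. On a linear TPM scale the low-STRA8 mean had covered a median of 9.59% of the distance from the Stra8-deficient to the high-STRA8 mean. It had covered under 10% for 23 genes and 10 to 50% for 20, and more only for Tmsb15a (71.0%). Hist1h2br (47.9%), Asphd1 (45.7%), Rab9b (40.4%) and Rhox6 (35.1%) followed. The lowest were AC125444.6 (-7.78%), Anxa9 (-5.39%), Fam228a (-4.69%) and Ces2g (-4.69%), whose low-STRA8 mean was below the Stra8-deficient mean. Both low-STRA8 libraries reached 1.5 TPM for only 3 genes, 4930523C07Rik, Asphd1 and Tmsb15a.

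**Figure D2:**
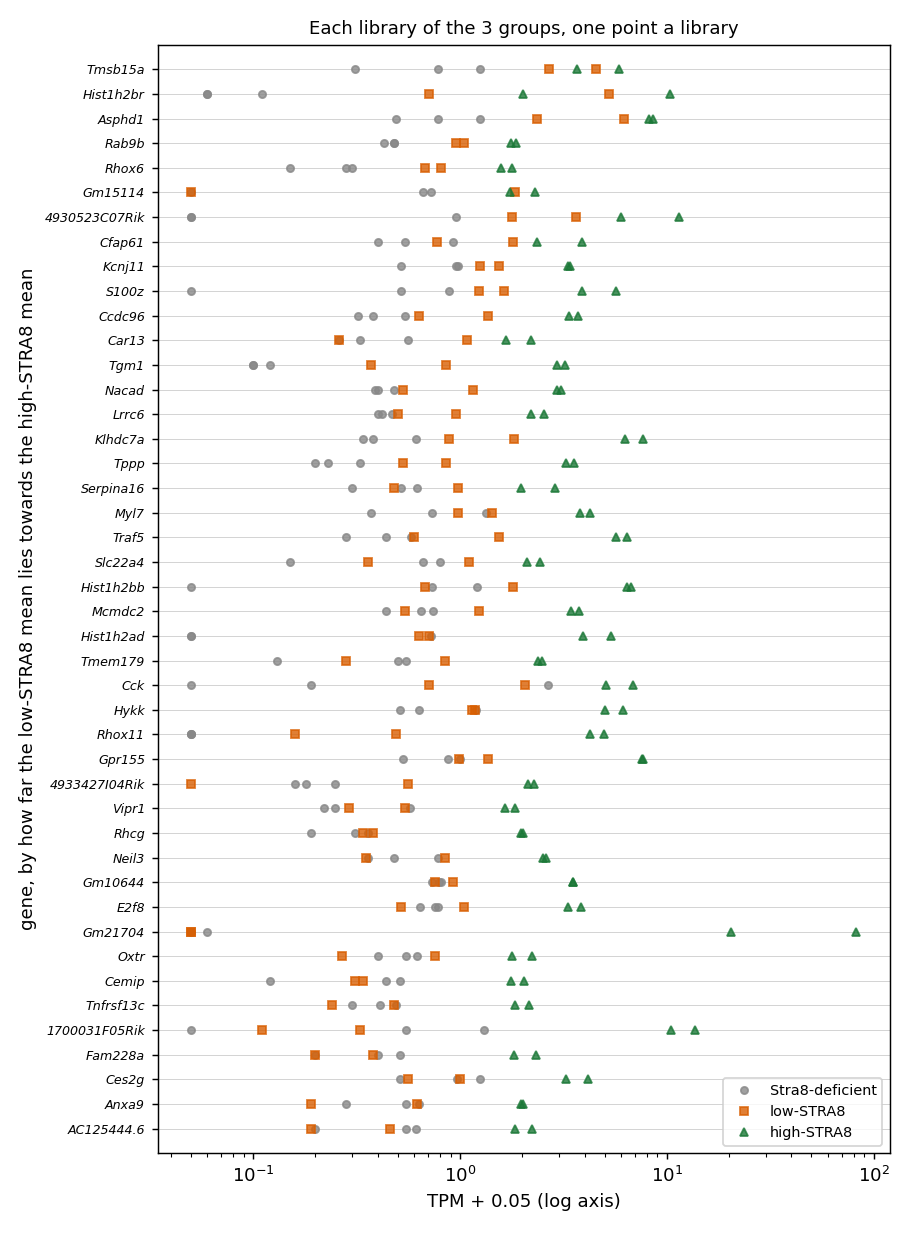
TPM + 0.05 (log axis) of the 44 genes in each library, 1 point a library, for Stra8-deficient (circles), low-STRA8 (squares) and high-STRA8 (triangles) cells. Genes are ordered by how far the low-STRA8 mean lies from the Stra8-deficient towards the high-STRA8 mean, from -7.78% at the bottom to 71.0% at the top.

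The 2 low-STRA8 libraries differed from each other for these genes more than for most. Replicate 1 was above replicate 2 for 39 of the 44, against 54.5% of all genes tested, and at least 1.5 times above it for 31, against 15.6% of all genes. Asphd1 (6.18 and 2.31 TPM), Hist1h2br (5.23 and 0.66 TPM) and Gm15114 (1.80 and 0 TPM) had wide gaps. Stra8 was also higher in replicate 1 (315 TPM) than in replicate 2 (236 TPM). So were the summed markers of Sertoli cells (884 and 208 TPM) and Leydig cells (18.9 and 3.48 TPM). Sums for peritubular and endothelial cells (70.9 and 50.9 TPM) and for the germ cell lists were also higher there, by smaller ratios. Only the macrophage and blood cell markers, mostly Hbb-bs and Hba-a1, were close and not higher there (42.6 and 46.5 TPM). The part of these differences in the result was not tested. The 2 high-STRA8 libraries showed no such lean, with replicate 2 above replicate 1 for 23 of 44 genes and for 48.8% of all genes. They differed by over 2 times only for Gm21704 and Hist1h2br, both with copies that share all of their words.

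**Figure D3:**
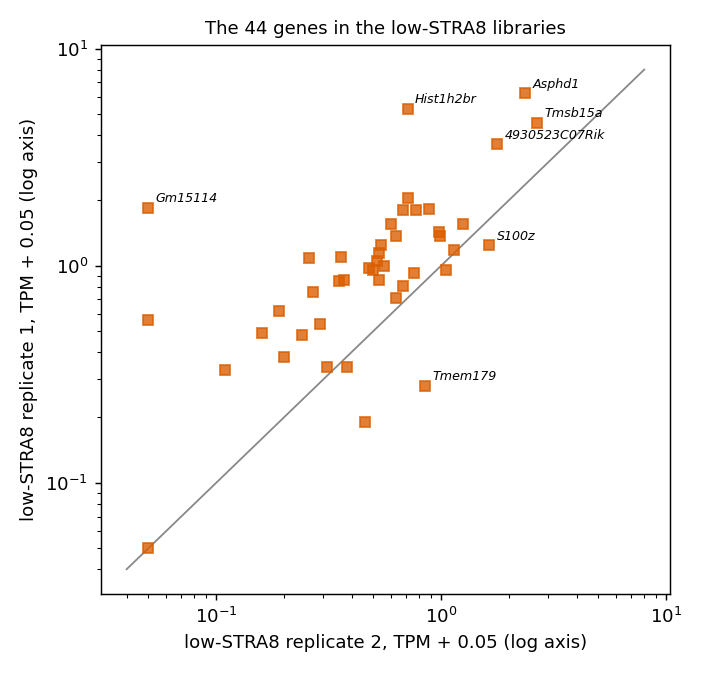
TPM + 0.05 of the 44 genes in low-STRA8 replicate 1 (vertical, log axis) against replicate 2 (horizontal, log axis), with a line where both are equal. Replicate 1 is higher for 39 genes, by almost nothing for Gm21704, which lies on the line near 0, and Gm15114 and 4933427I04Rik lie farthest above it.

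From Stra8-deficient to high-STRA8 cells, the contrast that chose the genes, 40 of the 44 were called higher by edgeR and none lower, where over all genes 18.8% were higher and 18.3% lower. On log2(TPM + 1) values in limma, 40.5% of the calls over all genes were rises in place of 50.8%. Nothing is read from this count. The 4 genes without a call were Cck, Tmem179, AC125444.6 and Gm15114. The 3 Stra8-deficient libraries together held a median of 29 estimated counts of a gene, and 11 of the genes had under 10.

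FLAG immunoprecipitation gives a readout from other animals. A summit is the position of highest read density in a peak, and its score is the −log10 p of the peak caller. A gene was called bound, as the study defines it, when a summit lay within 1 kb of a transcription start site (TSS) in at least 2 FLAG/FLAG libraries and in no wild-type library. This held for 9 of the 44 genes, Traf5, Hykk, Rhox11, Mcmdc2, Ccdc96, Gm10644, Kcnj11, Fam228a and AC125444.6, and for 22.5% of all 12467 genes with coordinates. The share of bound genes was thus near that of all genes. Other genes tested with at most 1 TPM in the Stra8-deficient cells were bound in 3.83% of 653 cases. Of the 9 bound genes, 8 are among the 13 off-to-on genes that the study drew from bound genes in these same libraries. This overlap is thus no independent evidence of their binding. AC125444.6 is the only other one.

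In FLAG/FLAG replicates 1, 2 and 3, summits lay near a TSS of 10, 10 and 6 of the 44 genes, against 36.0%, 23.6% and 14.2% of all genes, and no wild-type library had one. Hykk, Rhox11, Ccdc96 and Gm10644 had a summit in all 3 libraries, as had 11.9% of all genes. Cfap61, E2f8, Tgm1 and Tppp had one in a single library, with scores of 13.1, 9.06, 15.7 and 9.06, and were not counted. With FLAG/FLAG replicate 1 left out, so that both other libraries were needed, 5 genes remained bound, and without replicate 2 also 5.

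Gm10644 and Ccdc96 had the highest scores. Summits of Gm10644 lay 178, 140 and 172 bases upstream of its TSS with scores of 45.3, 47.2 and 18.3, and the score in FLAG/FLAG replicate 2 was above that of 94.0% of all bound genes in that library. The same summits lay within 1 kb of a TSS of Asf1b, a histone chaperone gene that stood at 161 to 177 TPM in the Stra8-deficient, 238 and 299 TPM in the low-STRA8 and 417 and 433 TPM in the high-STRA8 libraries. Summits of Ccdc96 lay 254, 206 and 161 bases upstream with scores of 46.3, 15.8 and 19.2, and a TSS of Tada2b was also within 1 kb of the highest of them. Tada2b, a subunit gene of histone acetyltransferase complexes, had 13.0 to 15.4 TPM in the Stra8-deficient, 12.4 and 16.1 TPM in the low-STRA8 and 26.5 and 26.6 TPM in the high-STRA8 libraries. Which gene of each pair such a summit belongs to cannot be told apart by distance.

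The other bound genes had no TSS of another gene within 1 kb of their highest summit. Summits of Hykk lay 141, 56 and 138 bases downstream of the TSS, with scores of 27.5, 18.2 and 9.79. Those of Rhox11 lay 699, 652 and 712 bases downstream, inside the gene, with scores of 22.8, 20.1 and 18.3. AC125444.6 had summits 10 bases upstream (score 36.5, replicate 1) and 15 bases downstream (10.1, replicate 3), and Fam228a 2 bases upstream (18.2, replicate 2) and 48 bases downstream (16.5, replicate 3). Those of Mcmdc2 lay 6 and 15 bases downstream (16.4 and 23.3), those of Kcnj11 524 and 579 bases upstream (14.5 and 13.5), and those of Traf5 17 bases upstream and 124 downstream (10.1 and 12.3), each in replicates 1 and 2. Kcnj11 and Rhox11 were the bound genes whose summits lay farthest from a TSS.

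**Figure D4:**
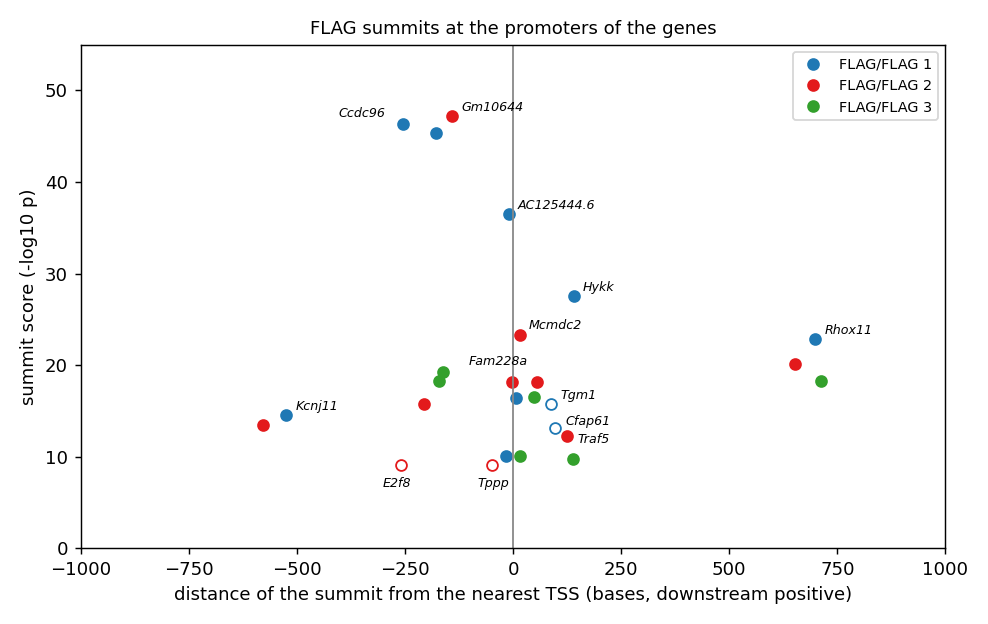
Score (−log10 p) of FLAG summits within 1 kb of a TSS against their distance from it in bases, coloured by FLAG/FLAG library; filled points are the 9 bound genes and open points the 4 genes with a summit in 1 library. Names stand by the highest summit of each gene, and scores run from 9.06 (E2f8 and Tppp) to 47.2 (Gm10644).

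The motif CNCCTCAG was searched on both strands of the mm10 genome (GRCm38). The study derived it from sequence at promoter summits of the genes it calls STRA8-activated, in these same FLAG/FLAG libraries. The 8 bound genes on its off-to-on list can thus have helped to define the motif. Their matches are no independent evidence for it. A match lay within 50 bases of the highest summit for 4 of the 9 bound genes, Traf5, Hykk, Rhox11 and Fam228a, against 15.1% of all bound genes and 3.64% of windows of 101 bases at the TSS of all genes tested. The windows of 30 bases that hold the match nearest to the summit are shown for these 4, because they join a near-silent gene, a summit and the motif, and for Mcmdc2 and Ccdc96, whose nearest match lay farther off. Each is written 5′ to 3′ on the strand of the motif, with the motif in capitals.
Traf5: gtgtcccgcgtCGCCTCAGttcgcccgcta
Hykk: ctcggggatgtCCCCTCAGagagacccttg
Rhox11: tgaggtacaatCTCCTCAGagcttcaggag
Fam228a: gggtcactggtCACCTCAGacccacaggcc
Mcmdc2: cggccctgcagCTCCTCAGgagactccagt
Ccdc96: gggccgcgtccCGCCTCAGcacgcaggcgc

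The Traf5 window is chr1:192092390-192092419 (+ strand), in an exon and 30 bases from the summit. The Hykk window is chr9:54917372-54917401 (− strand), in an exon and 37 bases away. That of Rhox11 is chrX:38084460-38084489 (− strand), in an intron and 32 bases away, and that of Fam228a is chr12:4738287-4738316 (+ strand), in an exon and 18 bases away. The window of Mcmdc2 is chr1:9908734-9908763 (− strand), in an intron and 95 bases away, and that of Ccdc96 is chr5:36484213-36484242 (+ strand), outside the gene and 106 bases away. The nearest matches of Gm10644 and Kcnj11 lay 268 and 488 bases from the summit, and AC125444.6 had none within 1 kb. A match of these letters is a description and no measure of binding.

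Promoters of the 44 genes held fewer CpG dinucleotides than those of most expressed genes. In the 300 bases from 250 before the TSS of the leading transcript, the ratio of observed to expected CpG had a median of 0.507 (quartiles 0.269 and 0.733), against 0.762 over all genes with coordinates and 0.868 over bound genes. The 653 other genes with at most 1 TPM in the Stra8-deficient cells had a median of 0.364. The ratio was under 0.35 for 15 of the 44 genes, for 13.4% of all genes and for 48.4% of the 653 other near-silent genes. It was lowest for 1700031F05Rik and Serpina16 (0.06 each) and highest for Gm10644 (1.15), E2f8 (0.99) and Cfap61 (0.98). The 9 bound genes had a median of 0.58, and AC125444.6 (0.22) was the only one of them under 0.35. The motif was present in 7 of the 44 promoters, in 8.98% of all and in 7.96% of those of the 653 genes.

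**Figure D5:**
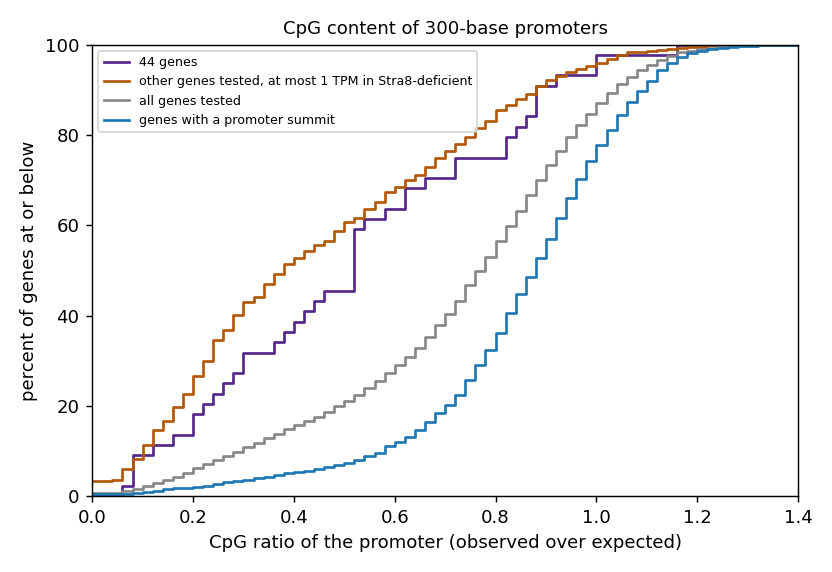
Percent of genes (vertical) at or below each ratio of observed to expected CpG (horizontal) in promoters of 300 bases, for the 44 genes, other genes tested with at most 1 TPM in the Stra8-deficient cells, all genes with coordinates and bound genes. The curve of the 44 genes (median 0.507) runs for most of its length between those of the other near-silent genes (0.364) and of all genes (0.762).

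The genes were spread over 16 chromosomes. The X chromosome held 6 of them (13.6%, against 4.43% of all genes tested), 1700031F05Rik, Tmsb15a, Rhox11, Gm15114, Rab9b and Rhox6, and chromosome 7 held 5 (11.4%, against 7.96%). Among the 6 on X, 2 rose from low to high, 1700031F05Rik and Rhox11, where 21.4% of all genes tested rose.

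Few of the 44 genes are on the lists of related genes. Of the 13 off-to-on genes of the study other than those not described here, which it chose on these samples, 8 are among the 44, and the other 5 (Celf6, Kbtbd12, Mageb3, Rab39 and Tmem62) missed the high-STRA8 level or the ratio. All 13 were tested, 10 rose from low to high and 2 from Stra8-deficient to low, and none fell. Among 51 meiotic recombination and prophase genes tested, 40 rose and 2 fell from low to high, and 21 rose and 6 fell from Stra8-deficient to low. Only Mcmdc2 of these met the limits. The summed level of the list was 4570 to 6570 TPM in the Stra8-deficient and 12200 and 13200 TPM in the high-STRA8 cells. The Mageb family, with 6 genes tested, had 1 gene that rose from low to high and no other change from low to high or from Stra8-deficient to low. Of all genes tested, 21.4% rose and 18.3% fell from low to high, and 10.2% rose and 13.9% fell from Stra8-deficient to low.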

How the data were processed

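RNA-seq was done on 7 libraries and FLAG ChIP-seq on 6 (3 FLAG/FLAG, 3 wild-type). The authors estimated transcript levels with kallisto 0.43.0 and deposited estimated counts and TPM per transcript and summed TPM per protein-coding gene. The authors called peaks with MACS2 2.1.1.20160309 on mm10 and deposited each summit with its −log10 p. Versions come from the submitters' processing notes. Deposited DESeq-normalized counts were not used.

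Transcripts were matched to GENCODE M21. Transcript TPM were first rescaled in each library to the level of the gene values. Of 12545 genes over 1 TPM in any library, 12523 had transcripts whose summed TPM equalled the deposited gene value (within 0.2% or 0.003 TPM in all 7 libraries), 298 of them through neighbouring transcripts rather than the symbol. Their rounded estimated counts were tested in a single fit with edgeR 4.0.16 (TMM, robust quasi-likelihood F test, Benjamini-Hochberg threshold 0.05); SE is the fold change over the root of F. Alternatives used DESeq2 1.42.0 and limma 3.58.1. The test was checked on simulated data. For 12467 genes TSSs had coordinates. Leading transcripts were compared with all others by 31-base words.

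Genes and lists were chosen with earlier results of these data known. Every gene is named once. Values in every library are given for the 12 highest, the bound and the listed genes. Those at 0 TPM in all Stra8-deficient or over 1.5 TPM in both low-STRA8 libraries have them too. So do Tppp, Tgm1 and Rab9b, added after their values were seen, and Gm15114, which is in none of these sets. The study calls the libraries of a group biological replicates; no source used here says whether each RNA library came from a separate mouse, and p-values then measure only the spread between these libraries. Some items are not reported here.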

Additional observations from a re-analysis of the deposited data

How the results depend on the processing

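The 44 genes became 22 with a high-STRA8 limit of 3 TPM and 18 at a ratio of at least 8. Without 1 library the limits chose 45 to 64 genes. Counts of called genes ranged, without 1 library, from 13 to 32 for high against low, from 3 to 9 for low against Stra8-deficient and from 29 to 42 for high against Stra8-deficient. For low against Stra8-deficient, 3 genes were called by limma on log2(TPM + 1) and 2 with the replicate block. The labels do not say whether replicate numbers pair these libraries. Deviations of same-numbered libraries correlated at -0.167 to -0.0289. With 2 libraries in a group the deviations mirror each other, so these values cannot settle it. With the low-STRA8 numbers crossed in the replicate block, an alternative chosen after seeing the data, 28, 6 and 37 genes were called in the 3 comparisons. Promoter summits in all 3 FLAG/FLAG libraries were found for 4 genes, and leaving out 1 library gave 5 to 7. The other alternatives stayed within 1.5 times the count, and no called gene changed direction under any fit. Depth limits the genes with the fewest reads: 10 had under 50 estimated counts in both high-STRA8 libraries together.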
